A study of Homo sapiens with 4 samples.

Results

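The proteasome genes examined here were the protein-coding autosomal genes whose symbols start with PSMA, PSMB, PSMC, PSMD, PSME, PSMF or PSMG. The rule found 49 genes among 20037 protein-coding genes, of which 19126 are autosomal. They lie on 16 chromosomes, 4 of them on chromosome 6. PSMC3IP and PSME3IP1 entered through their symbols and encode partners of a subunit, not subunits, and PSMA8 and PSMB11 belong to proteasomes of the testis and the thymus.

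H3K27Ac, an acetyl mark on histone H3 that is found at active promoters and enhancers, was profiled in MOLM13 cells by ChIPmentation, a form of chromatin immunoprecipitation in which the Tn5 transposase adds the sequencing adapters. MOLM13 is a cultured line of human AML cells that carry MLL1-r. Control cells carry no treatment in the labels, although the treatment description names DMSO, and the other cells received the Menin inhibitor SNDX-50469 at 500 nM for 16 h. Each condition had 1 H3K27Ac library with a deposited list of broad peaks, and 2 inputs are left out. Since neither condition has a second library, differences cannot be set against replicate spread, and no test or p-value is given. Both conditions share the cell line, so nothing here extends to other AML cells.

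The proteasome is the protease that degrades most short-lived proteins of the cell. Its core particle stacks rings of alpha and beta subunits, some of the beta subunits carry the active sites, and regulatory particles or activators at the ends admit the substrates. Interferon induces replacements for the active-site subunits, and the resulting immunoproteasome cuts proteins into peptides for HLA class I. Promoters of most proteasome genes are active in every cell.

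The control list held 245875 peaks over 224 Mb and the SNDX-50469 list held 54061 peaks over 29.4 Mb. The weakest listed peak had a −log10 p of 2.68 in control and 3.93 after treatment. The lists state no read totals, depth is unknown, and the part of depth and of the cutoff in any difference was not tested. All 8 myeloid marker genes (SPI1, CD33, CEBPA, CEBPE, MPO, LYZ, FLT3 and CSF1R) had a control peak within 1 kb of their 5′ ends, and 5 had one after treatment. Control peaks stood at the 5′ ends of 3 of 4 T cell markers and 3 of 4 B cell markers, and at none of 3 erythroid, 3 hepatocyte and 3 epithelial markers. The 3 hepatocyte markers, ALB, APOB and TTR, were at 0 bp over their whole windows.

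The reference sequence before the 5′ end is shown for 6 genes that span the outcomes described below. PSMB8, PSMB9 and PSMB10 are the immunoproteasome active-site genes, PSMB5 is the constitutive gene with a peak left, and PSMA3 and PSMA2 are alpha ring genes with much and with none of the control coverage left. Each run holds the 250 bases before the outermost annotated 5′ end in RefSeq, GRCh38.p14, read in the direction of the gene. These are chr6:32844680-32844929 on the minus strand for PSMB8, chr6:32853942-32854191 on the plus strand for PSMB9 and chr16:67936851-67937100 on the minus strand for PSMB10. The others are chr14:23035221-23035470 on the minus strand for PSMB5, chr14:58244593-58244842 on the plus strand for PSMA3 and chr7:42932175-42932424 on the minus strand for PSMA2. Capitals mark the letters of the searched motifs on either strand: CCAAT (NFY), GGGCGG (Sp), TGACNNNGC (antioxidant response element), GAAANNGAA (ISRE), GCATGCGC (NRF1) and TTCNNNGAA (GAS).
PSMB8: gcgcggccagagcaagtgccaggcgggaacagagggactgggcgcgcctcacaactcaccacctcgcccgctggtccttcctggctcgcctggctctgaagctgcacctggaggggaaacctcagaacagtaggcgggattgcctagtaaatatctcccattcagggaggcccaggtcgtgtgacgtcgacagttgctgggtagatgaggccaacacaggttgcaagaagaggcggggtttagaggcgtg
PSMB9: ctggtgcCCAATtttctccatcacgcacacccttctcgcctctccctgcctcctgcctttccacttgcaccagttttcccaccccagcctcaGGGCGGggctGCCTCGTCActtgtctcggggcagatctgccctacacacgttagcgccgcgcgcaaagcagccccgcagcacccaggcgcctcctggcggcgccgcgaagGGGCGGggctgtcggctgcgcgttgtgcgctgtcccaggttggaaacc
PSMB10: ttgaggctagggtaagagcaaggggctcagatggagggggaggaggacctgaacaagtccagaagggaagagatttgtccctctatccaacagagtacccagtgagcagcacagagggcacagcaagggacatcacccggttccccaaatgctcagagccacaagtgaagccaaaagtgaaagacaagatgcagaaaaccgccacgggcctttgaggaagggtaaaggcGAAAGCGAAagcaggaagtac
PSMB5: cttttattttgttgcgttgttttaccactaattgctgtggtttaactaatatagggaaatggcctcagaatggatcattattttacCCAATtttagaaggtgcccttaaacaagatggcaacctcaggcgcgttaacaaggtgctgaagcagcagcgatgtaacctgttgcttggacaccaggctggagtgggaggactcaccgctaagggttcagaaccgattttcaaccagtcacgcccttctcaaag
PSMA3: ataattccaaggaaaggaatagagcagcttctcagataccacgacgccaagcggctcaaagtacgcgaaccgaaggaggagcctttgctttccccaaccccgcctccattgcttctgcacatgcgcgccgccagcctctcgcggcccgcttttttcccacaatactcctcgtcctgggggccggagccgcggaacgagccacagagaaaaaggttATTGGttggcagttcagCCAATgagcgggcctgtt
PSMA2: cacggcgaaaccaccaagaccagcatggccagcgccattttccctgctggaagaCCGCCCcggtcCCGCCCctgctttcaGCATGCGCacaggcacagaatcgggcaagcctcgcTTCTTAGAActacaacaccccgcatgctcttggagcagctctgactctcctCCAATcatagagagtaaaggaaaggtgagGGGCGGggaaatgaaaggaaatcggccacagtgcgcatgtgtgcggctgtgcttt
All 6 stretches were covered over 250 of 250 bases in control. After treatment PSMB10 and PSMA3 were still covered over 250 bases, PSMB8 over 220 bases, and PSMB9, PSMB5 and PSMA2 over 0 bases. The PSMB8 stretch holds none of the searched motifs, PSMB10 holds 1 ISRE match next to the 5′ end, and PSMA2 holds 6 matches. PSMB8 has an ISRE match and a GAS match about another annotated start, outside the stretch shown.

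The 5′ window was the 5′ end with 1 kb on both sides, 2001 bp in all. In control, 43 of 49 proteasome genes (87.8%) had a peak in it, against 61.1% of 18779 autosomal genes with a known strand. The window was wholly covered in 16 of 49, against 3260 of the 18779 genes. After SNDX-50469, 28 of 49 (57.1%) had a peak there, against 31.2% of all genes. With peaks of −log10 q of at least 5 alone, it was 2 of 49 against 3.84%. Of the 43, 14 (32.6%) kept at least 50% of the control covered length, against 26.9% of all genes with a control peak. None was kept in 15 of 43, against 50.3%. The covered length of the median proteasome gene went from 1670 bp to 346 bp, and that of the median gene overall from 723 bp to 0 bp.

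**Figure D1:**
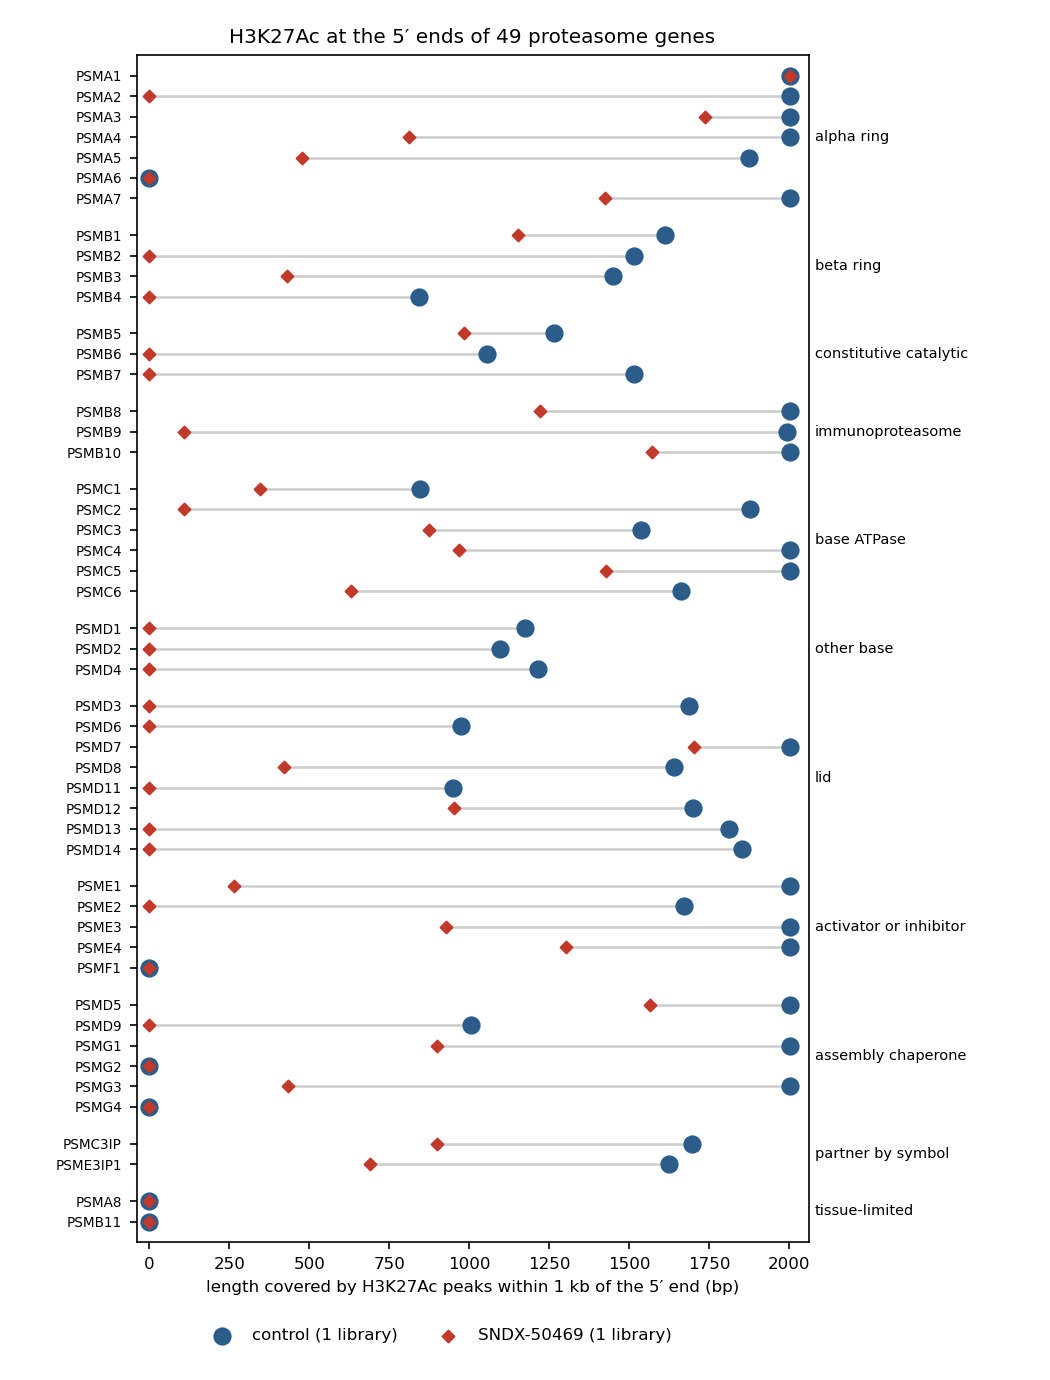
Length covered by H3K27Ac peaks within 1 kb of the 5′ end (x axis, bp, at most 2001) for each of 49 proteasome genes, grouped by role, in the control library (blue circles) and the SNDX-50469 library (red diamonds). PSMA1 is covered over the whole window in both, 15 genes with control coverage are at 0 bp after treatment, and 6 genes are at 0 bp in both.

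The kept share, the percent of the control covered length also covered after treatment, had a median of 25.7% over the 43 proteasome genes and of 0.00% over all genes. The gap between these medians depended on the weakest control peaks. With the control list cut at a −log10 p of 3.93, where the SNDX-50469 list ends, the medians were 25.7% and 23.1%. Among genes whose window was wholly covered in control, 15 of 16 proteasome genes had a SNDX-50469 peak, against 81.3% of 3260 genes, and 9 of 16 kept at least 50%, against 51.7%. Their median kept shares were 63.0% and 52.2%. The strength of the control peak went with the outcome. The strongest control peak of a window had a median −log10 q of 5.96 in the 28 proteasome genes with a SNDX-50469 peak and of 3.93 in the 15 that kept none. In bands of that value chosen after the data were seen, SNDX-50469 peaks stood at 0 of 2 proteasome genes under 3, 11 of 21 from 3 to 5, 9 of 10 from 5 to 7 and 8 of 10 at 7 or more. Over all genes the shares in these bands were 7.31%, 39.2%, 72.2% and 90.3%.

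Peaks of proteasome genes sat close to the 5′ end. At 300 bp inside the gene, 43 of 49 were covered in control and 22 (44.9%) after treatment, which were the highest values of either profile. Over all genes the shares there were 51.2% and 20.2%. At the base of the 5′ end itself 34 (69.4%) were covered in control and 15 (30.6%) after treatment, against 40.0% and 17.9% of all genes. In the 1 kb before the end 34.8% of the control length was kept and in the 1 kb after it 37.9%, against 32.1% and 36.5% over all genes. From 1 to 5 kb into the gene the kept share was 3.82%, against 15.0% over all genes, and from 5 to 1 kb before the end it was 4.33%, against 12.8%. Within 1 kb of the end these shares were close to those of all genes, and beyond it they were lower.

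**Figure D2:**
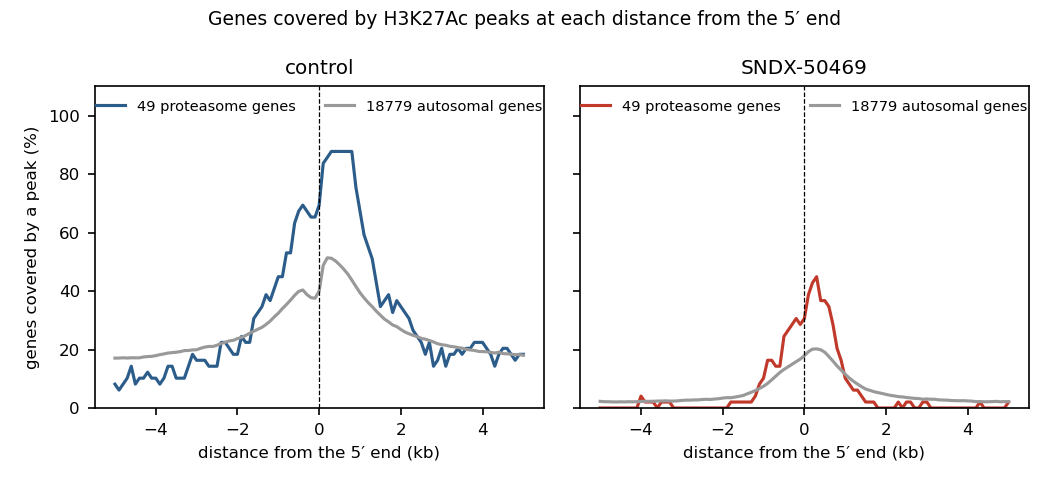
Percent of genes covered by a peak (y axis) at every 100 bp within 5 kb of the 5′ end (x axis, kb, positive inside the gene) in control (left) and after SNDX-50469 (right), for 49 proteasome genes (coloured) and 18779 autosomal genes (grey). The proteasome genes reach 87.8% in control and 44.9% after treatment, both at 300 bp inside the gene.

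The outermost annotated 5′ end is not the main start of every gene. In 6 proteasome genes the start of the RefSeq promoter table lies over 1 kb inside it, by 1340 bp in PSMD2, 4543 bp in PSMG4, 5339 bp in PSMF1, 13759 bp in PSMA6, 44304 bp in PSMG2 and 123276 bp in PSMA1. About these inner starts 47 of 49 proteasome genes had a control peak, against 11475 of 18779 genes. A SNDX-50469 peak stood at 30 of 49 (31.3% of all genes), and 15 of 47 kept at least 50% (27.3% of all genes). PSMG2, which encodes an assembly chaperone, had no peak at its outermost end and 1942 bp in control and 1740 bp after treatment at the inner start. PSMA1 turned the other way. Its outermost window, 142 bp from the 5′ end of PDE3B on the opposite strand, was covered over 2001 bp in both libraries, and its inner window went from 2001 bp to 114 bp.

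The immunoproteasome genes were contrasted with the constitutive active-site genes they replace. Within 1 kb of the 5′ end PSMB8, PSMB9 and PSMB10 together kept 48.4% of 5996 bp, and PSMB5, PSMB6 and PSMB7 kept 25.7% of 3835 bp. At the 5′ end each triplet varied within itself more than the triplets differed. Over each gene and its flanks the triplets kept 22.3% of 18639 bp and 16.9% of 43883 bp, and PSMB7 held 6393 of the 7397 bp kept by the constitutive genes. Within 1 kb of the 5′ end PSMB8 and PSMB10 kept much and PSMB9 little, while PSMB5 kept much and PSMB6 and PSMB7 none.

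PSMB8 (chr6:32840717-32844679, minus strand) encodes the chymotrypsin-like subunit of the immunoproteasome. Its 5′ window was covered over 2001 bp in control and 1221 bp after treatment, a kept share of 61.0%, and 92.6% was kept about its inner start 632 bp further in. The SNDX-50469 peak was 1923 bp wide, from −220 to 1702 bp relative to the 5′ end, with a fold over background of 5.94 and rank 707 of 54061 by fold in its list. The control peak there was 4407 bp wide, with a fold of 5.93 and rank 4520 of 245875. PSMB8 and PSMA1 were the only proteasome genes with a SNDX-50469 peak of −log10 q of at least 5 over the gene and its flanks, at 5.63 and 5.08. In the control list 27 of 49 proteasome genes had such a peak, against 7286 of 19126 autosomal genes. The PSMA1 peak straddled its outermost end, 142 bp from the 5′ end of PDE3B, and cannot be assigned to either gene. About the inner start of PSMA1 the SNDX-50469 peak was 114 bp wide, with a −log10 q of 1.65.

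PSMB10 (chr16:67934506-67936850, minus strand) encodes the trypsin-like immunoproteasome subunit. Its window went from 2001 bp to 1572 bp, a kept share of 78.6%. A single SNDX-50469 peak of 1572 bp straddled the 5′ end, from −577 to 994 bp relative to it, with a fold of 5.58 and rank 959. It lay inside a control peak of 3713 bp with a fold of 7.46 and rank 1574.

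PSMB9 (chr6:32854192-32859851, plus strand) encodes the immunoproteasome subunit that takes the place of PSMB6 and shares its promoter region with TAP1, a subunit of the transporter that carries peptides to HLA class I. The PSMB9 window went from 1994 bp to 109 bp, a kept share of 5.5%. A peak of 241 bp was left, from −1132 to −892 bp relative to the PSMB9 end, with a −log10 q of 1.45 and rank 38307. It lies inside TAP1, whose 5′ end is 488 bp from that of PSMB9, and the body of PSMB9 held no SNDX-50469 peak. The same peak was all that was left in the TAP1 5′ window, 241 bp of 2001 bp. In the window of TAP2, the partner subunit, 146 bp of 1401 bp was left.

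PSMB5 (chr14:23025851-23035220, minus strand) encodes the constitutive chymotrypsin-like subunit, the main target of bortezomib. Its window went from 1264 bp to 984 bp, a kept share of 77.8%. The SNDX-50469 peak was 1004 bp wide and began 17 bp inside the gene, with a −log10 q of 2.36 and rank 8254, within a control peak of 2286 bp.

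PSMB6 (chr17:4796164-4798495, plus strand) encodes the constitutive caspase-like subunit. It had 2 control peaks, of 305 and 750 bp, that covered 1055 bp of the window, and no SNDX-50469 peak over the gene and its flanks. PSMB7 (chr9:124353465-124415442, minus strand) encodes the trypsin-like subunit and went from 1516 bp to 0 bp at the 5′ end. Inside the same gene, from 19118 to 32963 bp past the 5′ end, a control peak of 13846 bp had a fold of 6.19 and rank 3795. Within it a SNDX-50469 peak of 3221 bp remained, with a fold of 5.03 and rank 1671. PSMB7 thus kept 16.3% of 39129 bp over the gene and flanks with none of it at the 5′ end.

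**Figure D3:**
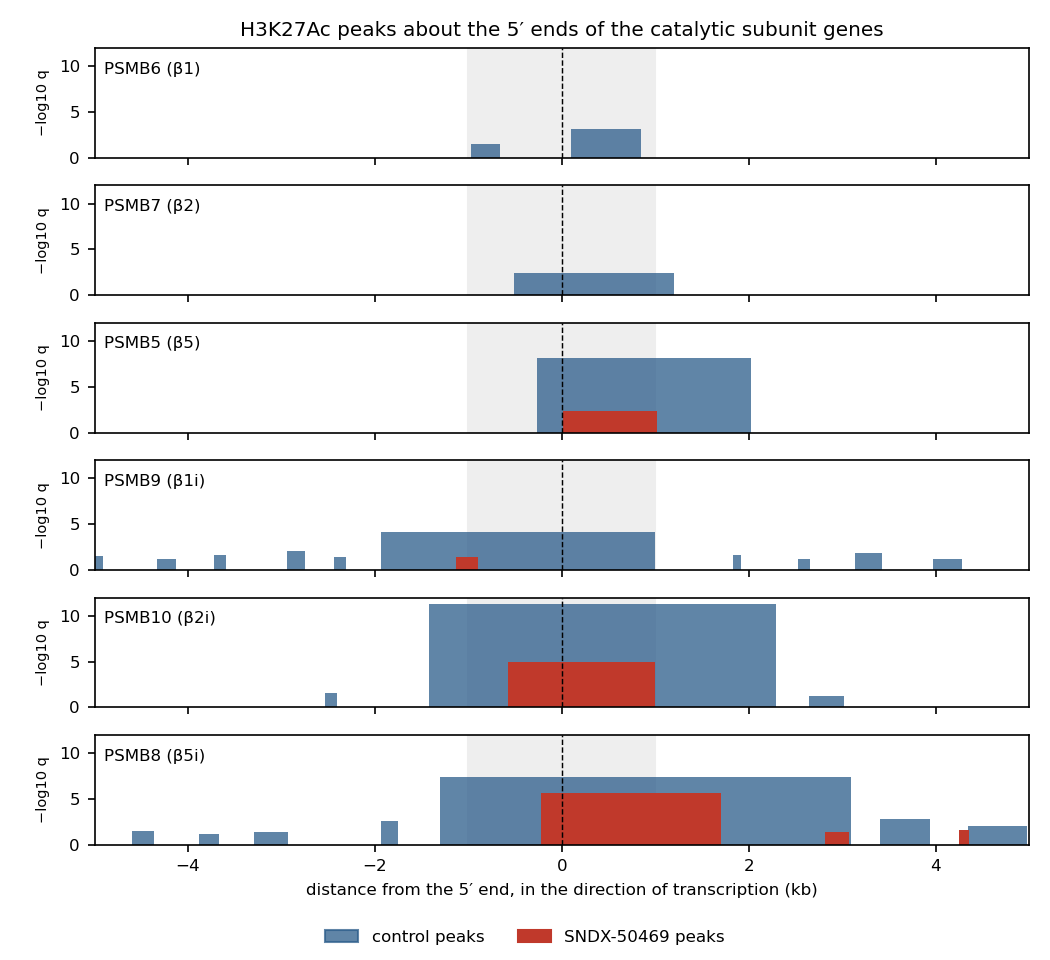
H3K27Ac peaks within 5 kb of the 5′ ends of the 3 constitutive active-site genes (upper panels) and the 3 immunoproteasome genes (lower panels), drawn as blocks whose width is the peak and whose height is the −log10 q within its own list (y axis), for control (blue) and SNDX-50469 (red). The x axis is the distance from the 5′ end in kb and the grey band is the 5′ window. Red blocks cover the 5′ ends of PSMB8 and PSMB10, the PSMB5 block begins 17 bp inside the gene, PSMB9 has a 241 bp block on the TAP1 side, and PSMB6 and PSMB7 have none in this range.

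Among the 7 alpha ring genes, whose products form the outer rings and the gate of the core particle, 5 had a SNDX-50469 peak in the 5′ window and 54.3% of the control length was kept. That share includes PSMA1, covered over 2001 bp in both libraries at its outermost end near PDE3B. About its inner start PSMA1 went from 2001 bp to 114 bp. The median kept share of the alpha ring genes was 55.8% at the outermost ends and 25.5% about the inner starts. PSMA3 went from 2001 bp to 1737 bp and PSMA7 from 2001 bp to 1425 bp. PSMA4 went from 2001 bp to 810 bp and PSMA5 from 1873 bp to 478 bp. PSMA2, whose 5′ end lies 202 bp from that of MRPL32, a mitochondrial ribosomal protein gene, went from 2001 bp to 0 bp. It was the only wholly covered proteasome window with no SNDX-50469 peak. PSMA6 had no peak at its outermost end and went from 1668 bp to 0 bp about its inner start. A SNDX-50469 peak of 4021 bp lay between these starts, inside a control peak of 8348 bp.

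The 4 genes of the remaining beta ring subunits kept 25.7%. PSMB1 went from 1613 bp to 1151 bp and PSMB3 from 1449 bp to 429 bp. PSMB2 and PSMB4 went to 0 bp, from 1516 bp and 843 bp.

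The regulatory particle has a base, with a ring of ATPases that unfolds substrates, and a lid. All 6 base ATPase genes, PSMC1 to PSMC6, had a SNDX-50469 peak in the 5′ window, and 43.3% of their control length was kept. PSMC5 was highest, from 2001 bp to 1428 bp, and PSMC2 lowest, from 1876 bp to 109 bp. None of the 3 other base genes had a SNDX-50469 peak there. PSMD1 and PSMD2, which encode the scaffold subunits, went to 0 bp from 1175 bp and 1097 bp. PSMD4, which encodes a ubiquitin receptor, went to 0 bp from 1215 bp. The strongest control peaks of PSMD2 and PSMD4 were weak, with −log10 q of 3.49 and 3.08, and that of PSMD1 was 6.38.

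Of the 8 lid genes 3 had a SNDX-50469 peak in the 5′ window, and 24.4% was kept. PSMD7, which encodes the partner of the deubiquitinase of the lid, was highest and went from 2001 bp to 1702 bp. PSMD14, which encodes that deubiquitinase, went from 1852 bp to 0 bp. PSMD12 went from 1700 bp to 952 bp and PSMD8 from 1640 bp to 422 bp. PSMD3, PSMD6, PSMD11 and PSMD13 went to 0 bp, from 948 to 1813 bp. Lid and ATPase genes therefore gave unlike counts of genes with any SNDX-50469 peak, 3 of 8 and 6 of 6. All of them had a control peak in the window. The share was 31.2% of all genes and 50.1% of the 11481 genes with a control peak. At least 50% was kept in 2 of 8 and 2 of 6. The only PSMC2 peak in the window was 109 bp wide, from −889 to −781 bp relative to the 5′ end. The strongest control peak had a −log10 q of 2.28 to 5.00 in the 5 lid genes that kept none. It was 5.96 to 6.80 in the 3 others and 3.94 to 6.36 in the ATPase genes. No test of the difference in counts was made.

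PSME1 and PSME2 encode the interferon-inducible activator that opens the gate of the core particle. They did not resemble PSMB8 and PSMB10. The PSME1 window went from 2001 bp to 265 bp and the PSME2 window from 1670 bp to 0 bp, although the PSME2 control peak was strong, with a −log10 q of 9.75 and rank 2115. PSME3, the nuclear activator, went from 2001 bp to 926 bp, and PSME4, an activator linked to histone degradation, from 2001 bp to 1301 bp. PSMF1, which encodes an inhibitor of the core particle, went from 1917 bp to 0 bp about its inner start.

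Among the 6 assembly chaperone genes PSMD5 went from 2001 bp to 1566 bp at the outermost end, and PSMG2 kept 86.6% about the inner start given above. PSMG1 went from 2001 bp to 898 bp and PSMG3 from 2001 bp to 432 bp. PSMG4 had no peak at its outermost end and went from 951 bp to 627 bp about the inner start, and PSMD9 went from 1004 bp to 0 bp. The partner genes PSMC3IP and PSME3IP1 went from 1696 bp to 899 bp and from 1624 bp to 689 bp. The tissue-limited genes had no peak in the 5′ window in either library. PSMA8 was at 0 bp over its whole gene and flanks, and PSMB11 had 454 bp in control, in 3 weak peaks past its 3′ end.

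Over each gene with 5 kb of flank at either end, 48 of 49 proteasome genes had control peaks and 35 had SNDX-50469 peaks. Of 19126 autosomal genes, 15225 had control peaks and 10285 had SNDX-50469 peaks there. All 48 had less coverage after treatment, as had 98.1% of all genes with control peaks. The length was at least 2-fold lower in 46 of 48, against 93.6% of 15225 genes with control peaks, and 14 of 48 kept none, against 44.3%. The exceptions under 2-fold were PSMA7, from 2990 bp to 1891 bp, and PSMG2, from 4208 bp to 2530 bp. Summed over all members 47108 bp of 386599 bp was kept, 12.2%, against 11.6% over all genes. Outside the 5′ windows the share was 6.7% for proteasome genes and 9.3% for all genes. In the large genes most control coverage was far from the 5′ end. PSMA1 went from 58652 bp to 6094 bp, PSMD1 from 22559 bp to 916 bp and PSMF1 from 20739 bp to 580 bp. The windows of 6 members overlap another member (PSMB8 with PSMB9, PSMB5 with PSMB11, PSME1 with PSME2), so those pairs share sequence.

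**Figure D4:**
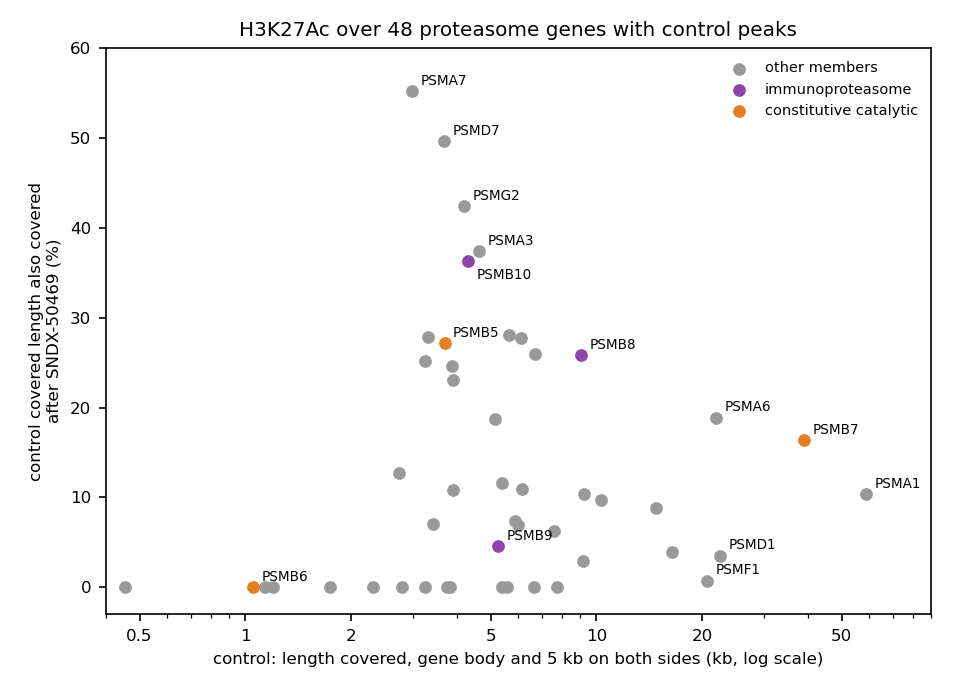
Percent of the control covered length also covered after SNDX-50469 (y axis) against the control covered length over the gene and 5 kb of flank at either end (x axis, kb, log scale) for the 48 proteasome genes with control peaks. PSMA7 is highest at 55.3%, 14 genes lie at 0%, and the immunoproteasome genes (purple) and constitutive active-site genes (orange) overlap.

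Of the 66 SNDX-50469 peaks at proteasome genes, 11 shared no position with a control peak. The share of such peaks over all genes was not counted. Over proteasome genes 47108 of 51713 bp covered after treatment was also covered in control, against 20040414 of 24162655 bp over all genes. The other 4605 bp at proteasome genes was covered after treatment alone. Of the 4605 bp PSMG2 had 746 bp, PSMC3 551 bp and PSMB5 467 bp. The PSMG2 length belongs to a peak that overlaps control peaks. The PSMB5 length is a weak peak beyond the 3′ end of the gene.

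The 5′ ends of 10 of 49 proteasome genes (20.4%) lie within 1 kb of a gene that is read the opposite way, against 13.9% of all genes. Of these 10, 6 had a SNDX-50469 peak in the window, and of the other 39 it was 22 (56.4%). Over all genes these shares were 58.6% and 26.7%. A peak in such a window cannot be assigned to either gene.

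Promoter windows from 250 bases before to 50 after each RefSeq start were found for 43 proteasome genes. The 6 without an entry were PSMD4, PSMB1, PSMG3, PSMB7, PSMB6 and PSMA7. CCGGAAG, the core of ETS sites, was in the windows of 17 of 43 (39.5%), against 16.7% of 15101 genes and 22.6% of the 9380 of them with a control peak. TGACNNNGC, the antioxidant response element read by NFE2 family factors, was in 15 (34.9%), against 17.9% and 19.1%. GAAANNGAA, the ISRE of interferon genes, was in 8 (18.6%), against 9.21% and 8.72%, and TTCNNNGAA, the GAS element of STAT factors, was in 8 as well, against 9.13% and 8.58%. The 8 with an ISRE match were PSMA4, PSMB4, PSMB8, PSMB10, PSMC2, PSME1, PSME2 and PSMG4. Of them 5 had a SNDX-50469 peak within 1 kb of the outermost 5′ end, against 25 of all 43. Matches were searched at the RefSeq promoter starts, which can differ from the outermost 5′ end where peaks were counted. PSMG4, counted without a peak, had 627 bp after treatment about its inner start. CCAAT was in 21 (48.8%), against 41.8% of all genes and 42.7% of genes with a control peak. GGGCGG was in 31 (72.1%), against 64.6% of all genes and 73.5% of those with a control peak. GCATGCGC was in 2 (4.65%), against 4.81% and 6.39%, and AAGATGGCG, read by YY1, in 3 (6.98%), against 3.23% and 4.82%. GGGANTTTC, a κB form, was in 0 of 43, against 1.54% and 1.64%. CCAAT matches were found with a SNDX-50469 peak at the outermost 5′ end in 15 of 21 and ETS matches in 9 of 17. The share was 25 of 43 over all proteasome genes with a promoter window, and no link of a motif to the outcome was tested. These are counts of letters and not of bound sites. The median GC content was 62.0% in proteasome windows and 63.0% overall.

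Other genes of the pathway, a list of 21 with factors for assembly, ubiquitin delivery and transcription of proteasome genes, all had a control peak in the 5′ window. After treatment 16 had one, against 31.2% of all genes and 50.1% of genes with a control peak. Of these 21, 13 kept at least 50%, against 26.9% of all genes with a control peak, and their median kept share was 65.0%. NFE2L1, the factor that raises transcription of proteasome genes when the proteasome is blocked, went from 1997 bp to 1872 bp. ADRM1, a ubiquitin receptor of the base, went from 1841 bp to 1738 bp, while PSMD1, PSMD2 and PSMD4 of the same base kept none. POMP, which matures the core particle, went from 2001 bp to 1364 bp, and VCP, which unfolds substrates ahead of the proteasome, from 1421 bp to 706 bp. PITHD1, SEM1 and USP14 kept none over the gene and flanks.

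Cytosolic ribosomal protein genes and nuclear respiratory chain genes are likewise active in every cell and were set beside the proteasome genes. SNDX-50469 peaks stood in the 5′ windows of 75 of 80 ribosomal genes (93.8%) and 48 of 82 respiratory genes (58.5%), against 28 of 49 proteasome genes. The median kept shares were 64.2%, 30.3% and 25.7%. The proteasome genes were thus near the respiratory genes and below the ribosomal genes in both values, and no test of these differences was made.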

How the data were processed

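H3K27Ac ChIPmentation libraries of MOLM13 cells were analysed from the peak lists the authors deposited, 1 per condition. The submitters' processing notes list Trim Galore 0.6.5, Bowtie2 2.3.4.2, Picard 2.9.0, MACS2 2.1.2 and GRCh38, and the supplementary methods name TopHat2 and hg38. Calling options and use of the inputs are not given in the sources used here. In each list the authors give a ratio (fold over background), the deposited −log10 p and −log10 q, and a score, which was not used. These values are relative to the background of each library, so positions were compared between lists, not peak values.

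Covered lengths were computed with Python 3.11.15, numpy 2.4.6 and pandas 2.3.3 and tested on simulated peaks. Genes and 5′ ends came from RefSeq, GRCh38.p14. Strand came from the RefSeq promoter table for 43 members and by symbol from GENCODE for 6. The rule named every member, described by role. Each sample was grouped by its labels. Members and lists were chosen with earlier results of these data known. Alternatives changed the window, the start, the peak cutoff, the members and the counting of shared peaks.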

Additional observations from a re-analysis of the deposited data

How the results depend on the processing

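Of 66 alternative values, 33 stayed within the limits set for them and 33 did not. The limit was 1.5 times for a count, a 95% interval over genes for a median and a 95% binomial interval over base pairs for a triplet of genes. Neighbouring bases are not independent, so the last interval is too narrow, and 25 of the 33 are triplet values. No paired analysis was possible because the lists come from 1 control and 1 treated library, and neither could be left out. With peaks of −log10 q of at least 5 in both lists, 27 of 27 genes were at least 2-fold lower (93.8% of all genes) and 2 of 49 had a SNDX-50469 peak at the 5′ end (3.84% of all genes), so the excess over all genes seen there with every peak was gone. The median kept share over gene and flanks was then 0.00%. The immunoproteasome genes kept 23.7% over gene and flanks and 30.5% at the 5′ end, all of it at PSMB8. PSMB10 kept 0.00% and PSMB9 had no control peak left. The constitutive active-site genes kept 0.00% in both, and at the 5′ end only PSMB5 among them had a control peak left. With the control list trimmed to the length of the SNDX-50469 list, 7 genes kept a control peak and 3 of 7 were at least 2-fold lower (38.4% of all genes). The medians were then 49.3% over gene and flanks and 74.5% at the 5′ end (79.5% over all genes), the immunoproteasome genes kept 42.3% and 78.6%, and the constitutive genes 43.9% and 77.8%. Each of these triplet values is that of 1 gene, PSMB10 and PSMB5, since no control peak was left at the others. With the control list cut where the other list ends by −log10 p, immunoproteasome genes kept 29.7% over gene and flanks, and constitutive genes 26.6% there and 27.9% at the 5′ end. When a control peak counted as kept only if at least 50% of it was covered, 8 of 49 genes kept one at the 5′ end (10.5% of all genes), and the median over gene and flanks and all 4 triplet values were 0.00%.

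Without flanks the immunoproteasome genes kept 38.2% and the constitutive genes 18.5%, and with 10 kb of flank 20.0% and 15.5%. Within 500 bp of the 5′ end they kept 57.3% and 22.3%, within 2 kb 37.6% and 19.9%, and about inner starts 58.9% and 24.2%. The order of the triplets at the 5′ end was the same under these windows, close under the trimmed list, and lost where both were at 0.00%. Without the members on chromosome 6, an alternative chosen after seeing the data, 25 of 45 had a SNDX-50469 peak at the 5′ end. The cause of the moved values was not tested. Unknown depth and 1 library per condition limit all values.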
